A study of Homo sapiens with 6 samples.

Results

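NQO1, AKR1B1, AKR1B10, AKR1C1, AKR1C2, AKR1C3, EPHX1, UGDH and OSGIN1 encode detoxification enzymes, and a partner protein, that are known as targets of the transcription factor NRF2. These 9 genes were taken by gene symbol from the 58735 genes of the deposited expression table. The rule uses no measured value, but the genes were chosen with earlier results of these data known. MDA-MB-231 is an established line of human basal-like breast cancer cells that lack the estrogen and progesterone receptors. Both groups were labelled SCR, and their genotype was labelled WT. The authors call their non-targeting shRNA control shSCR, but the labels do not say that these cells carry it. A single cell line was used. RNA was sequenced from 3 libraries without irradiation (0 Gy) and from 3 libraries collected 24 h after 10 Gy of gamma rays from a caesium source. The comparison addressed how irradiation altered the RNA levels of these enzymes.

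NRF2, encoded by NFE2L2, is held at a low level by KEAP1, which delivers it to a CUL3 and RBX1 ubiquitin ligase. When oxidants or electrophiles modify KEAP1, NRF2 accumulates, pairs with a small MAF protein (MAFF, MAFG or MAFK) and binds antioxidant response elements near its target genes. BACH1 pairs with the same small MAF proteins and represses many of these genes. NQO1 reduces quinones to hydroquinones and is widely used as a readout of NRF2 activity. The aldo-keto reductases use NADPH to reduce carbonyl groups of sugars, lipid aldehydes, retinoids, prostaglandins and steroids.

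The authors deposited FPKM, in which the fragments of a gene are divided by its length and by the depth of the library. Whole reads could be recovered from these values, and they summed to between 15643641 and 28861781 per library. Each library had been divided by between 0.973 and 1.04 times its own reads, with the 3 lower factors at 0 Gy and the 3 higher factors at 10 Gy, so a scaling that differed between the groups was already in the values. Libraries of the same dose correlated at r of at least 0.992 and libraries of different doses at no more than 0.989, on the log2 scale across genes. All 8 marker genes fixed for MDA-MB-231 were expressed, with VIM at 300.9 FPKM and CD44 at 78.6 FPKM at 0 Gy. Of these 8 markers, 5 were called lower at 10 Gy, where 23.7% of all genes tested were. The log2 changes were -0.49 for AXL and -0.26 for VIM and CAV1. With TPM 3 were called lower and 1 higher, where 1066 of all 12128 genes tested were called lower and 3113 higher. The 10 markers of other cell types or of luminal breast cells summed to between 2.98 and 3.18 FPKM at 0 Gy and between 3.69 and 3.82 FPKM at 10 Gy. CD3E and PGR were at 0 in all 6 libraries. PECAM1, an endothelial and leukocyte marker, was the one marker of this list that rose, from 1.22 to 1.94 FPKM. Whether these changes bear on the 9 genes was not tested. The labels do not say that the 3 libraries of a dose came from separate cultures, so p-values measure the spread between these libraries, which may be technical.

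To place the genes against the sequence that NRF2 recognises, RefSeq promoter entries (GRCh38.p14) were searched on both strands. Each entry covers 300 bases around a transcription start, most of them before it. The letters searched were TGACNNNGC, the usual core of the antioxidant response element, and its variant TGAGNNNGC. Of the 9 genes, 8 had an entry, all but AKR1B10, and 6 of the 8 held at least 1 of these motifs in some entry. Counted by entry, 6 of the 12 entries of these genes held either motif, 5 of them TGAGNNNGC and 1 TGACNNNGC. Among all 35116 promoter entries, 13.3% held TGACNNNGC, 18.3% held TGAGNNNGC and 29.1% held either. The stretches around the match are shown for OSGIN1, NQO1, AKR1C1 and AKR1C2, since OSGIN1 and NQO1 had the largest changes and the AKR1C pair shares the same bases. Each is read 5′ to 3′ on the strand of the gene, and capitals mark the match, which lies on the opposite strand and is therefore shown as its reverse complement. The OSGIN1 stretch is at chr16:83953070-83953219 (+), the NQO1 stretch at chr16:69726661-69726690 (-), the AKR1C1 stretch at chr10:4963363-4963392 (+) and the AKR1C2 stretch at chr10:5003884-5003913 (-).
OSGIN1: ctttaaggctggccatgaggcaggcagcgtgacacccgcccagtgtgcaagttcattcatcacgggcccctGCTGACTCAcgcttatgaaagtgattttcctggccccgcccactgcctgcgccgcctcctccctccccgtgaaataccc
NQO1: ttcctggagctGCAGCCTCAgcatcctccg
AKR1C1: tcaggggcgttGCCAGCTCAttgctcttat
AKR1C2: tcaggggcgttGCCAGCTCAttgctcttat

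The match began at position -99 relative to the start of the promoter entry in OSGIN1, -119 in NQO1, -41 in AKR1C1 and -45 in AKR1C2. Read on its own strand, the OSGIN1 match is TGAGTCAGC, and it overlaps TGAGTCA, the site bound by AP-1 factors, which 4.95% of all entries held. The matches of AKR1C1 and AKR1C2 are the same letters. Over the 296 bases that could be aligned, the promoters of these neighbouring genes were equal at 264 bases (89.2%). EPHX1 held TGACTTGGC at -78 of an alternative start, and UGDH held TGAGCTGGC at -250, the edge of the window. Every match named here, not that of EPHX1 alone, lies inside the annotated span of its gene. An annotated transcript of each of these genes therefore starts upstream of the match. Which start these cells use was not tested. A match describes the letters in this window only, and sequence further upstream was not searched.

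In unirradiated cells, NQO1 was by far the most abundant of the 9 transcripts, above 97.7% of the 12128 genes tested. AKR1B1 was also abundant, above 90.1% of genes. The 5 remaining genes at or above 1 FPKM ranged from UGDH, above 77.9% of genes, to AKR1C1, above 8.85%. On the FPKM scale, which is per length of the gene, the mean levels at 0 Gy were 130.5 ± 6.52 for NQO1, 40.5 ± 1.77 for AKR1B1, 19.5 ± 0.335 for UGDH and 16.3 ± 1.21 for EPHX1 (SD, n = 3). OSGIN1 followed at 6.02 ± 0.374, AKR1C3 at 5.36 ± 0.0437 and AKR1C1 at 1.41 ± 0.12. AKR1B10 at 0.385 ± 0.156 and AKR1C2 at 0.350 ± 0.0552 were the lowest, and their library values overlapped. The other neighbours in this order did not overlap between libraries.

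**Figure D1:**
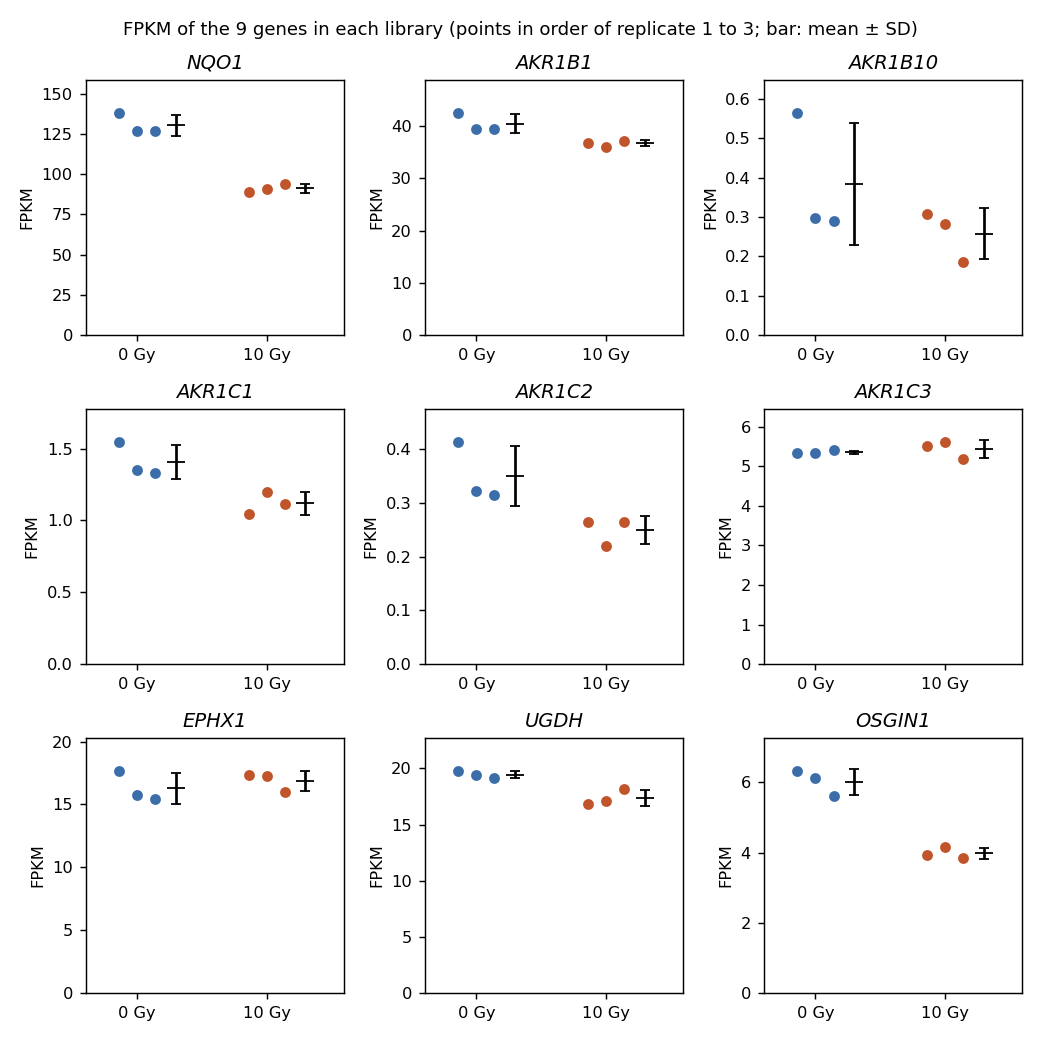
FPKM of each of the 9 genes (vertical axis from 0, a separate scale for each gene) in the 3 libraries at 0 Gy (blue) and the 3 at 10 Gy (orange), with the mean ± SD as black bars. The 10 Gy libraries lie below all 0 Gy libraries for NQO1, AKR1B1, AKR1C1, AKR1C2, UGDH and OSGIN1, while the groups overlap for AKR1B10, AKR1C3 and EPHX1.

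The order depended in part on the length used. The deposited length of each gene equals the summed bases of all its GENCODE 29 exons, which for AKR1B1 (3660 bases) was 2.60 times and for AKR1C3 (4532 bases) 2.51 times the shortest principal transcript. With the shortest principal transcript in its place, mean levels at 0 Gy were 145.9 for NQO1, 105.1 for AKR1B1, 26.1 for UGDH, 24.6 for EPHX1, 13.4 for AKR1C3 and 10.7 for OSGIN1, in FPKM per that length. AKR1B1 then came much closer to NQO1, AKR1C3 stood above OSGIN1, and the library values of UGDH and EPHX1 overlapped. This length was chosen after seeing the data, and it alters no comparison of one gene between doses.

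After 10 Gy, NQO1 fell by 30.1% and OSGIN1 fell by 34.0%. AKR1B1 fell by 9.25% and UGDH fell by 10.8%, and none of the genes tested was called higher. The means of EPHX1 and AKR1C3 were higher by 3.65% and 1.55%. AKR1C3 and EPHX1 did not pass the test, nor did AKR1C1, and AKR1C2 and AKR1B10 were below the level tested. Genes were compared with limma on log2(FPKM + 1), a scale that understates the change of low genes, and were called at a Benjamini-Hochberg adjusted p under 0.05 over the 12128 genes that averaged 1 FPKM or more. Of the 9 genes, 7 reached that level, and 4 of the 7 were called, all lower, where 35.6% of all genes tested were called, 23.7% lower and 11.9% higher. With a change of at least 1.3-fold required as well, NQO1 and OSGIN1 were called, where 5.77% of all genes were, 2.95% lower and 2.82% higher. In 5 of the 7, every 10 Gy library lay below every 0 Gy library, as did 32.8% of all genes tested. The median log2 change of the 7 genes was -0.16, beside -0.04 for all genes tested. These libraries were made from bulk RNA, in which fewer cells expressing a gene and less RNA per cell cannot be told apart.

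The split of calls over all genes moved with the scaling. Of all calls, 66.6% were lower with FPKM as deposited, 51.3% with median-of-ratios scaling, 36.1% with upper quartile scaling and 25.5% with TPM, which moved the median of all genes by 0.12 (log2). Changes are therefore also given relative to the median of all genes. On that scale, AKR1B1 was at -0.10 with FPKM as deposited and -0.09 with TPM, UGDH at -0.12 and -0.11, and AKR1C1 at -0.14 and -0.24. The TPM fit used log2(TPM + 1), so the pseudocount does not weigh the same on TPM as on FPKM. With FPKM and a pseudocount of 0.1, AKR1C1 was at -0.26. AKR1C3 was at 0.06 and 0.07 and EPHX1 at 0.09 and 0.10, and the values of NQO1 and OSGIN1 are given with each gene.

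**Figure D2:**
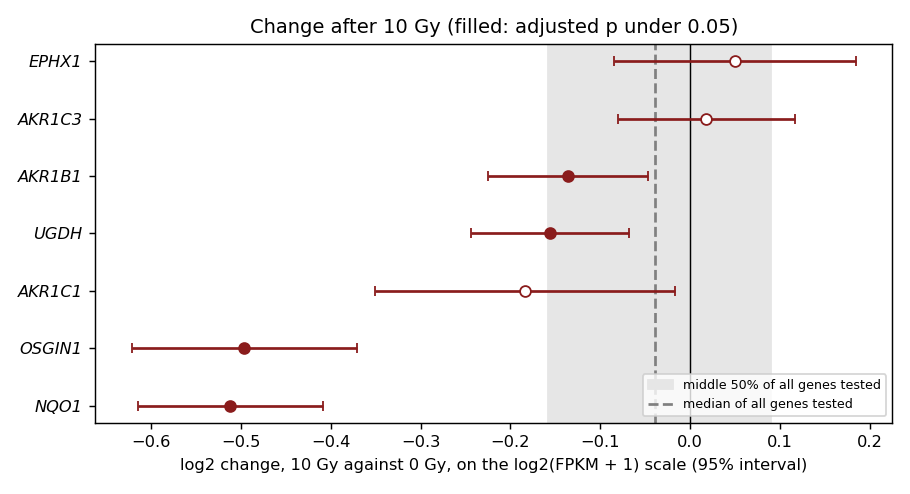
Log2 change at 10 Gy against 0 Gy (horizontal axis, log2(FPKM + 1) scale) of the 7 genes tested, with 95% intervals from limma, filled where the adjusted p is under 0.05. The grey band is the middle 50% of the 12128 genes tested and the dashed line their median of -0.04. NQO1 at -0.51 and OSGIN1 at -0.50 lie well outside the band, and AKR1C3 at 0.02 and EPHX1 at 0.05 lie within it.

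NQO1 (ENSG00000181019, chromosome 16, 69706996 to 69726951, minus strand), which encodes NAD(P)H quinone dehydrogenase 1, was at 138, 127 and 127 FPKM in the 0 Gy libraries. At 10 Gy it was at 88.8, 90.8 and 94.0 FPKM. The groups did not overlap, and each value rested on between 5391 and 9581 reads. The mean fell by 30.1%, from 130.5 ± 6.52 to 91.2 ± 2.60 FPKM (SD, n = 3), a log2 change of -0.51 (SE 0.044, 95% interval -0.62 to -0.41, limma adjusted p = 0.000618). Only 0.948% of the genes tested had a lower change. NQO1 was called lower in all 17 alternatives run, with log2 changes between -0.53 and -0.39. Relative to the median of all genes, its change was -0.47 with FPKM as deposited and -0.46 with TPM.

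OSGIN1 (ENSG00000140961, chromosome 16, 83948282 to 83966332, plus strand) encodes oxidative stress induced growth inhibitor 1, a protein linked to growth arrest and cell death. It was at 6.33, 6.13 and 5.60 FPKM at 0 Gy, and at 3.94, 4.15 and 3.83 FPKM at 10 Gy. The groups did not overlap, on between 262 and 467 reads per library. The mean fell by 34.0%, from 6.02 ± 0.374 to 3.97 ± 0.161 FPKM (SD, n = 3). The log2 change was -0.50 (SE 0.053, 95% interval -0.62 to -0.37, limma adjusted p = 0.00108), and 1.14% of the genes tested had a lower one. OSGIN1 was called in all 16 alternatives in which it was tested, with log2 changes from -0.59 to -0.42, and relative to the median of all genes it was at -0.46 with FPKM as deposited and -0.52 with TPM. It was not tested in the setting that required a mean of 5 FPKM.

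The aldo-keto reductases of the AKR1B branch act on sugars and lipid aldehydes. AKR1B1 (ENSG00000085662, chromosome 7, 134442350 to 134459284, minus strand) is aldose reductase, which turns glucose into sorbitol. It was at 42.5, 39.5 and 39.4 FPKM at 0 Gy and at 36.8, 36.1 and 37.2 FPKM at 10 Gy. The groups did not overlap, and the mean fell by 9.25%, with a log2 change of -0.14 (SE 0.038, 95% interval -0.22 to -0.05, limma adjusted p = 0.0291). This call held in 7 of 17 alternatives and in none of the 3 scaling alternatives, where the log2 change was between -0.09 and -0.01 and the adjusted p between 0.0796 and 0.804. It was also lost without any one of the 10 Gy libraries, with adjusted p of 0.0837 without replicate 1, 0.103 without replicate 2 and 0.0633 without replicate 3.

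AKR1B10 (ENSG00000198074, chromosome 7, 134527592 to 134541408, plus strand) reduces retinal and lipid aldehydes and lies close to AKR1B1. It was at 0.565, 0.298 and 0.291 FPKM at 0 Gy, where AKR1B1 was near 40 FPKM, and at 0.307, 0.283 and 0.185 FPKM at 10 Gy. The groups overlapped, and between 7 and 21 reads stood behind each value. Summed over libraries there were 40 reads at 0 Gy and 32 at 10 Gy. With the deposited scaling, which differed between the groups, the rate ratio was 0.669 (exact 95% interval 0.407 to 1.09, for counting error only). A difference was thus not detectable at this depth.

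The AKR1C enzymes reduce and oxidise steroids and prostaglandins. Their genes lie side by side on chromosome 10 and are near copies of each other. AKR1C1 (ENSG00000187134, 4963253 to 4983283, plus strand) inactivates progesterone, and it was at 1.55, 1.35 and 1.33 FPKM at 0 Gy and at 1.04, 1.20 and 1.12 FPKM at 10 Gy. The groups did not overlap, but the log2 change of -0.18 (SE 0.071, 95% interval -0.35 to -0.02) did not pass, with a limma adjusted p of 0.0834. Over 16 alternatives the adjusted p was between 0.0305 and 0.266, and 3 of them called it.

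AKR1C2 (ENSG00000151632, 4987400 to 5018031, minus strand) inactivates dihydrotestosterone. It was at 0.414, 0.322 and 0.314 FPKM at 0 Gy and at 0.264, 0.220 and 0.264 FPKM at 10 Gy. These groups did not overlap either, on between 26 and 57 reads per library. The reads summed to 133 and 114. With the deposited scaling, which differed between the groups, the rate ratio was 0.717 (exact 95% interval 0.553 to 0.927, counting error only). An exact permutation test over libraries gave p = 0.1, the smallest that 3 against 3 allows.

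AKR1C3 (ENSG00000196139, 5035354 to 5107686, plus strand) makes testosterone from androstenedione and also acts as a prostaglandin F synthase. It was at 5.33, 5.34 and 5.41 FPKM at 0 Gy and at 5.52, 5.62 and 5.19 FPKM at 10 Gy. The groups overlapped, with the 0 Gy libraries inside the range of the 10 Gy libraries. The log2 change was 0.02 (95% interval -0.08 to 0.12, limma adjusted p = 0.76), and none of 17 alternatives called it.

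Because the AKR1C copies can share reads, their sum was also compared. Of the windows of 1 read length in AKR1C1 transcripts, 10.1% occurred unchanged in AKR1C2, and 13.4% of the windows of AKR1C2 occurred in AKR1C1, while 0.444% of those of AKR1C3 occurred in AKR1C2. The summed level of the 3 genes was 7.29, 7.01 and 7.05 FPKM at 0 Gy and 6.83, 7.04 and 6.57 FPKM at 10 Gy. The groups overlapped, with a mean log2 difference of -0.06 (two-sided exact permutation test, p = 0.2). AKR1C1 and AKR1C2 together were at 1.76 ± 0.175 FPKM at 0 Gy and 1.37 ± 0.0584 FPKM at 10 Gy without overlap (exact permutation p = 0.1, n = 3). AKR1C1 made up 80.2 ± 1.10% of that pair at 0 Gy and 81.7 ± 2.46% at 10 Gy (exact permutation p = 0.4, n = 3). AKR1C3 took 75.3 ± 1.94% of the AKR1C sum at 0 Gy and 79.9 ± 0.953% at 10 Gy, again without overlap (exact permutation p = 0.1, n = 3). These sums and shares rest on the deposited lengths and depend on the length used. Per length of the shortest principal transcript, the 0 Gy means were 1.84 for AKR1C1, 0.602 for AKR1C2 and 13.4 for AKR1C3.

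EPHX1 (ENSG00000143819, chromosome 1, 225810092 to 225845563, plus strand) encodes microsomal epoxide hydrolase, which opens reactive epoxides with water. It was at 17.7, 15.7 and 15.4 FPKM at 0 Gy and at 17.4, 17.3 and 16.0 FPKM at 10 Gy. The groups overlapped, and the log2 change was 0.05 (95% interval -0.08 to 0.19, limma adjusted p = 0.526). None of 17 alternatives called it, and the nearest was TPM with an adjusted p of 0.0516 for a log2 change of 0.18.

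UGDH (ENSG00000109814, chromosome 4, 39498755 to 39528311, minus strand) encodes UDP-glucose 6-dehydrogenase, which makes the UDP-glucuronate that glucuronidation and hyaluronan synthesis consume. It was at 19.8, 19.5 and 19.1 FPKM at 0 Gy and at 16.8, 17.1 and 18.2 FPKM at 10 Gy. The groups did not overlap, and the mean fell by 10.8%, with a log2 change of -0.16 (SE 0.037, 95% interval -0.24 to -0.07, limma adjusted p = 0.0171). The call held in 12 of 17 alternatives. It was lost with upper quartile scaling (adjusted p = 0.15), TPM (0.422) and voom (0.122), and without 10 Gy replicate 1 (0.0689) or replicate 2 (0.0667), all from limma.

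Some of the genes overlap others, and the use of strand in counting is not stated, so reads of such partners could not be told apart. The partner of NQO1, AC092115.2, had 0 reads in all 6 libraries, and AC009119.2, which covers 3164 bases of OSGIN1, had between 0 and 10. UGDH-AS1 had between 9 and 22 reads beside at least 1210 for UGDH. EPHX1 overlaps 28 bases of TMEM63A, which is expressed, and AL591895.1 with between 21 and 35 reads. Among the 0 Gy libraries, replicate 1 was the highest for 8 of the 9 genes, where it was the highest for 43.8% of all genes. Without it the log2 change was -0.47 for NQO1 (limma adjusted p = 0.000784) and -0.46 for OSGIN1 (limma adjusted p = 0.00293).

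Ratios of genes within a library do not depend on how the library was scaled. The pairs given here were chosen after their values were seen, and each was compared by a two-sided exact permutation test with a smallest p of 0.1. NQO1 was at 3.25, 3.22 and 3.21 times the FPKM of AKR1B1 at 0 Gy and at 2.41, 2.52 and 2.53 times at 10 Gy (exact p = 0.1). Against its paralog NQO2, which uses dihydronicotinamide riboside in place of NADH or NADPH, NQO1 was at 24.8, 24.1 and 24.4 times at 0 Gy and at 18.7, 19.0 and 19.2 times at 10 Gy (exact p = 0.1). In both ratios the doses did not overlap. OSGIN1 was at 0.657, 0.679 and 0.633 times its paralog OSGIN2 at 0 Gy and at 0.504, 0.527 and 0.482 times at 10 Gy, also without overlap (exact p = 0.1). By contrast, the ratio of NQO1 to OSGIN1 overlapped between doses, at 21.7 ± 0.95 and 23.0 ± 1.38 (exact permutation p = 0.4, n = 3). The ratio of UGDH to AKR1B1 overlapped as well, at 0.481 ± 0.0142 and 0.473 ± 0.0158 (exact permutation p = 0.6, n = 3). NQO1 was at 8.03 ± 0.196 times EPHX1 at 0 Gy and at 5.42 ± 0.407 times at 10 Gy, without overlap (exact permutation p = 0.1, n = 3).

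**Figure D3:**
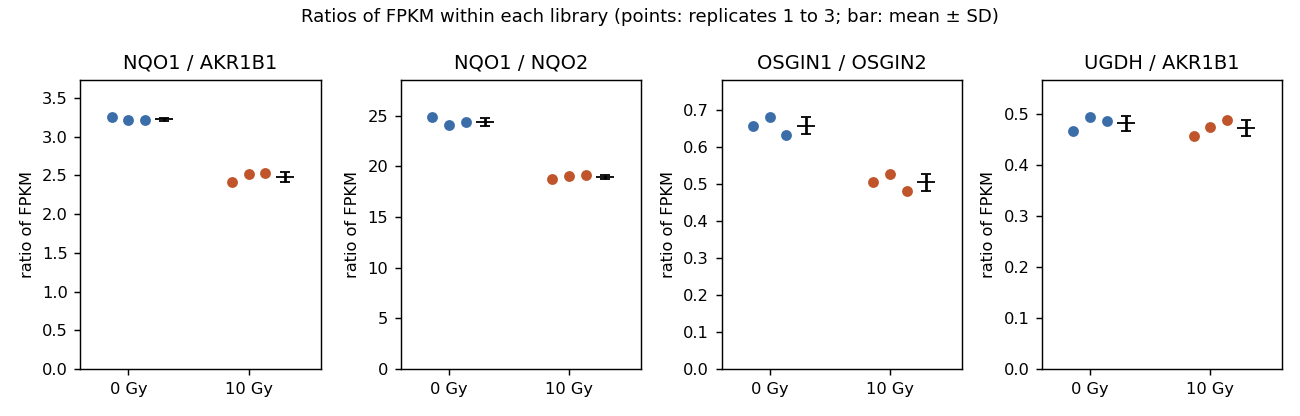
Ratio of the FPKM of 2 genes within each library (vertical axes from 0) at 0 Gy (blue) and 10 Gy (orange), with mean ± SD as black bars. NQO1 over AKR1B1, NQO1 over NQO2 and OSGIN1 over OSGIN2 lie lower in all 3 libraries at 10 Gy, and UGDH over AKR1B1 overlaps between doses.

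The other genes of the pathway were read from lists, and no set test was run. Of 35 other NRF2 targets, 30 were tested, 22 fell and 1 rose, with a median log2 change of -0.25 beside -0.04 for all genes tested, of which 23.7% fell and 11.9% rose. At 1.3-fold or more, 11 of the 30 fell, as did 2.95% of all genes. SLC7A11, the cystine transporter, fell from 18.8 to 11.3 FPKM (log2 change -0.69). FTL, the ferritin light chain, fell from 3611 to 2281 FPKM (-0.66), and TXNRD1, thioredoxin reductase, fell from 110.1 to 74.4 FPKM (-0.56). NQO1 and OSGIN1 therefore had changes within the range of this list, which ran from -0.69 to 0.29. TRIM16L fell by 0.53 on the log2 scale. TXN, the substrate of TXNRD1, fell from 549.9 to 406.6 FPKM (-0.43) and FTH1, the ferritin heavy chain, from 458.6 to 359 FPKM (-0.35). The one gene that rose was ABCC3, an exporter of glucuronide conjugates, from 5.34 to 6.74 FPKM (0.29). With TPM, 15 of the 30 fell and 3 rose, where 1066 of the 12128 genes fell and 3113 rose, and the median was -0.20, or -0.28 relative to the median of all genes. SLC7A11, FTL, TXNRD1, TRIM16L, TXN and FTH1 were each called lower there too. Without the filter on low genes, FTL was not called (limma adjusted p = 0.0832).

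The regulators of the pathway were read the same way. All 14 were tested, 6 fell and 1 rose, where 23.7% of all genes fell and 11.9% rose, with a median log2 change of -0.09 that turned to 0.03 with TPM and was -0.05 relative to the median of all genes in both. NFE2L2, which encodes NRF2 itself, fell from 14.3 ± 0.288 to 12.2 ± 0.212 FPKM (log2 change -0.21, limma adjusted p = 0.00374), and KEAP1 from 44.1 ± 2.82 to 35.6 ± 0.632 FPKM (-0.30, limma adjusted p = 0.0037), with n = 3. SQSTM1, the autophagy receptor that binds KEAP1 and is itself an NRF2 target, fell from 111.8 to 79.9 FPKM (-0.48). Of the small MAF genes, MAFG fell from 30.8 to 24.9 FPKM (-0.30) and MAFF from 16.7 to 14.1 FPKM (-0.23), while MAFK was at 10.3 and 9.95 FPKM and did not pass (limma adjusted p = 0.582). The repressor BACH1 was at 5.81 and 5.39 FPKM and did not pass (limma adjusted p = 0.156). NFE2L1, a relative of NRF2, was at 98.3 and 91.9 FPKM and did not pass (limma adjusted p = 0.0913). RBX1 fell by 0.26 and the coactivator EP300 rose by 0.31 on the log2 scale, both named after their values were seen. The call of EP300 was lost without 10 Gy replicate 1 (limma adjusted p = 0.0738), without 10 Gy replicate 2 (0.0689) and without the filter on low genes (0.0895). With TPM, KEAP1, MAFG and SQSTM1 were still called lower and 2 regulators were called higher. Of all 12128 genes, 1066 fell and 3113 rose with TPM. NFE2L2 was then at -0.09 (limma adjusted p = 0.0926), MAFF at -0.12 (0.0696) and RBX1 at -0.14 (0.0737).

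**Figure D4:**
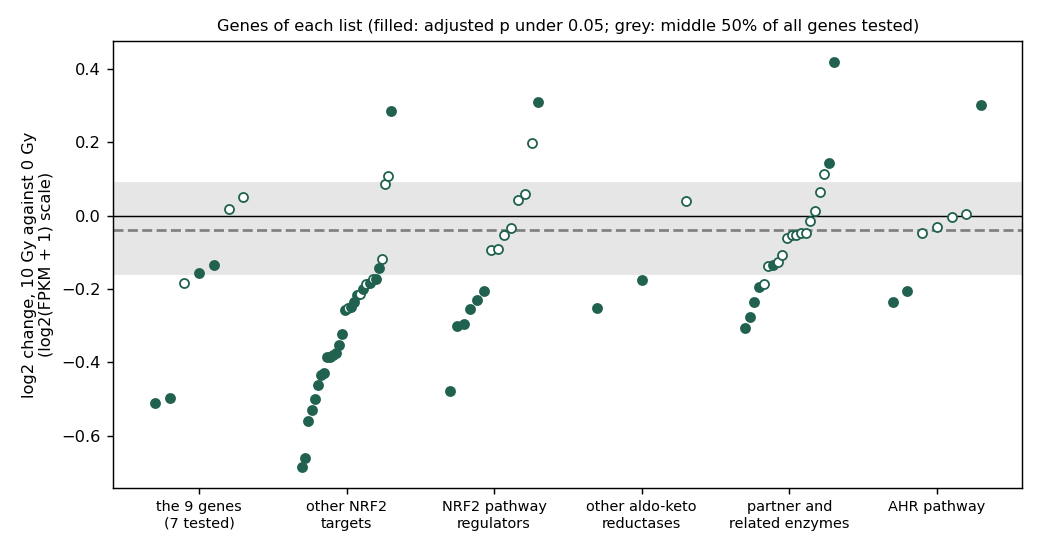
Log2 change at 10 Gy against 0 Gy (vertical axis, log2(FPKM + 1) scale) of every gene tested in 6 lists, each ordered by its change and filled where the limma adjusted p is under 0.05. The grey band is the middle 50% of the 12128 genes tested and the dashed line their median. Among the other NRF2 targets, 22 of 30 are filled and below 0, where 23.7% of all genes tested were called lower. The counts for the other lists are in the text, and no list was tested against another.

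Most of the rest of the aldo-keto reductase family was little expressed in these cells. Of 9 other family members, 3 reached 1 FPKM. AKR7A2, a succinic semialdehyde and aflatoxin aldehyde reductase, fell from 32.8 to 28.9 FPKM (log2 change -0.17, limma adjusted p = 0.0222). AKR1A1, aldehyde reductase, fell from 15.2 to 12.6 FPKM (-0.25, limma adjusted p = 0.0377), and AKR1E2 was at 2.06 and 2.16 FPKM without passing. Neither AKR7A2 nor AKR1A1 was called with any of the 3 scaling alternatives. The call of AKR7A2 was also lost without 10 Gy replicate 1 (limma adjusted p = 0.0759) or replicate 3 (0.0746). That of AKR1A1 was lost without 0 Gy replicate 1 (limma adjusted p = 0.0642) or replicate 2 (0.0507) and without 10 Gy replicate 1 (0.107) or replicate 2 (0.122).

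Enzymes that share a substrate, cofactor or step with the 9 genes were read as a further list. Of 24 such genes, 20 were tested, 5 fell and 2 rose, shares close to the 23.7% and 11.9% of all genes. Their median log2 change was -0.06, which turned to 0.01 with upper quartile scaling and 0.05 with TPM. With TPM 1 fell and 5 rose, where 1066 of all 12128 genes fell and 3113 rose. With voom 4 fell and 4 rose, where 1884 of all genes fell and 2844 rose. The short-chain retinal reductase DHRS3 rose from 1.09 to 1.79 FPKM (0.42, limma adjusted p = 0.00367). The genes highest at 0 Gy in this list were HSD17B11 at 39.2 FPKM, the cytochrome b5 reductase CYB5R3 at 37.2 FPKM and the retinol dehydrogenase RDH11 at 18.6 FPKM, and none of the 3 passed with FPKM as deposited. HSD17B11 was at a log2 change of 0.11 (limma adjusted p = 0.0529), and it was called higher with voom and all 3 scaling alternatives, at 0.24 with TPM (limma adjusted p = 0.002). CYB5R3 was called higher with TPM alone among the scalings (limma adjusted p = 0.0361). OSGIN2, the paralog of OSGIN1, fell by 0.19 on the log2 scale and UXS1, which consumes the product of UGDH, fell by 0.24, and both were named after their values were seen. The call of UXS1 was lost with TPM (limma adjusted p = 0.0744) and without 10 Gy replicate 2 (0.0546). NQO2 was at 5.34 and 4.81 FPKM and had a log2 change of -0.13 (limma adjusted p = 0.05, just over the threshold).

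NQO1 is also induced through the aryl hydrocarbon receptor (AHR), and that pathway was listed separately. Of its 9 genes, 7 were tested, 1 rose and 2 fell, where 11.9% of all genes rose and 23.7% fell, with a median log2 change of -0.03 that turned to 0.01 or more with each scaling alternative. CYP1A1, the classical AHR target, rose from 0.979 to 1.44 FPKM (0.30, limma adjusted p = 0.0129), and the call was lost without 10 Gy replicate 1 (0.0544) and without the filter on low genes (0.0543). CYP1B1 was at 51.9 and 50.2 FPKM and TIPARP at 15.9 and 15.5 FPKM, and neither passed. AHR itself was at 11.8 and 11.9 FPKM. The 2 genes that fell, NFE2L2 and ALDH3A1, also stand in the NRF2 lists, and neither was called with TPM. ALDH3A1 was called with 10 Gy replicate 2 left out but not with any other single library left out (limma adjusted p between 0.0538 and 0.11).

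The changes of the 7 genes under each setting fell into 3 levels. NQO1 and OSGIN1 stayed between -0.59 and -0.39 and were called in every setting in which they were tested. AKR1B1, UGDH and AKR1C1 were below 0 in every setting but crossed the threshold in some. AKR1C3 and EPHX1 were called in none, and AKR1C3 turned to -0.00184 without 10 Gy replicate 2.

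**Figure D5:**
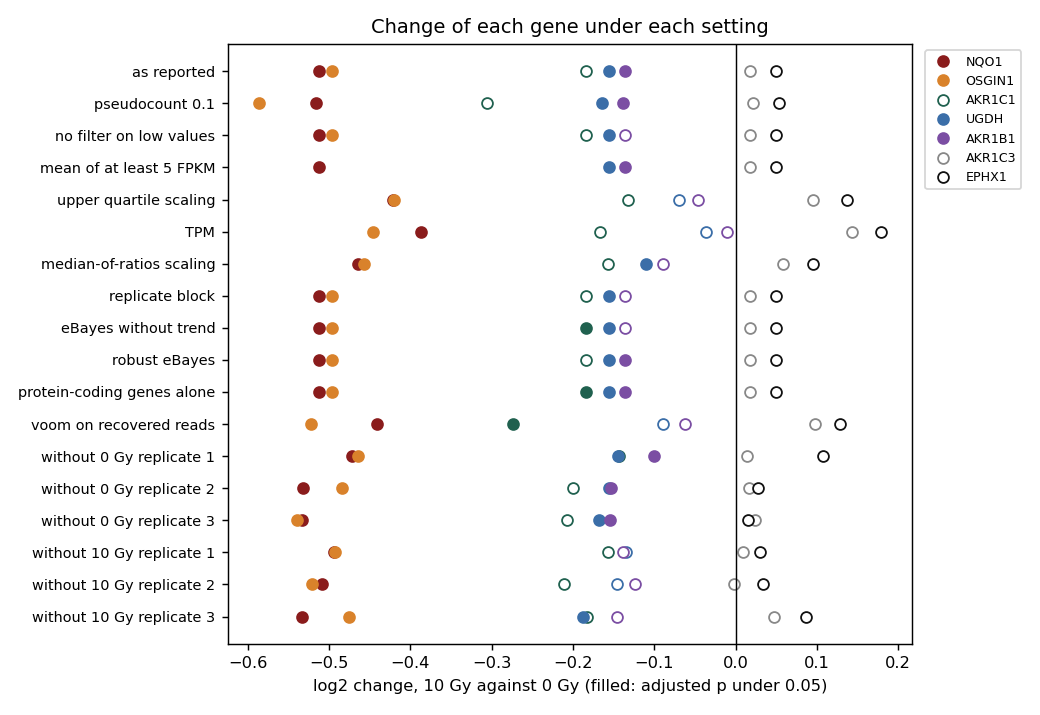
Log2 change at 10 Gy against 0 Gy (horizontal axis) of the 7 genes tested, as reported and under 17 alternatives (vertical axis), filled where the limma adjusted p is under 0.05. The voom setting is on the log2 scale of reads scaled to depth and the others on log2(FPKM + pseudocount). NQO1 and OSGIN1 are filled in every setting in which they were tested, and the open points of AKR1B1 and UGDH show where those calls were lost.

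As a description of pattern, each gene was set beside the 10490 other protein-coding genes tested by Pearson's r of log2(FPKM + 1) over the 6 libraries. The doses themselves separate these libraries, so a high r is common. NQO1 was most like TAF7 (r = 0.9997) and TMEM106C (0.9992), and 1246 genes exceeded r = 0.95. OSGIN1 was most like ATG3 (0.999) and SH3RF1 (0.9989), with 899 genes above that r. For UGDH the nearest were RNF14 (0.999) and CCDC58 (0.996), for AKR1B1 TUBA1C (0.9983) and RHEB (0.998), and for AKR1C1 MRPS10 (0.9998) and PDCL3 (0.9959). AKR1C3, nearest to FBXL2 (0.9734) and PTCD3 (0.9649), exceeded r = 0.95 with 7 genes, and EPHX1, nearest to TIFA (0.9938) and INAFM1 (0.99), with 11.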

How the data were processed

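Processed RNA-sequencing data from MDA-MB-231 cells comprised 6 libraries, 3 at 0 Gy and 3 at 24 h after 10 Gy, grouped by the titles in the sample labels. The authors deposited FPKM per gene from polyA libraries made by their sequencing provider. The submitters' processing notes name HISAT2 and GRCh38, and the counting program is not given in the sources used here. Gene coordinates equal those of GENCODE 29 for all 58735 genes. FPKM times gene length came out as whole reads (within 0.05) for 100% of values above 0, and these reads served for depth, for exact intervals and for the voom alternative. Intervals of ratios of reads cover counting error only, and reads without molecular identifiers are not independent molecules. These ratios used the depth by which each library had been divided. The scaling that differed between the groups is therefore in them and in their intervals.

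The doses were compared with limma 3.58.1 in R 4.3.3 (eBayes with trend) on log2(FPKM + 1) over genes that averaged 1 FPKM or more, and p-values were adjusted by Benjamini-Hochberg over all genes tested. For single quantities, exact permutation tests (two-sided) were used (scipy 1.17.1, Python 3.11.15). The limma fit was tested on simulated reads that held no difference in scaling between the groups. The genes named are the 9 genes and, from each list, up to 4 genes called at 1.3-fold or more with the largest change, the 3 highest at 0 Gy, NFE2L2, KEAP1, BACH1 and the small MAF genes, and the 2 protein-coding genes nearest in pattern. Other names were chosen after their values were seen. The 9 genes and the lists were chosen with earlier results of these data known, and the lists came from general knowledge. Alternatives covered the pseudocount (0.1), the filter (none, or 5 FPKM), scaling by median of ratios, upper quartile or TPM, a replicate block, eBayes settings, protein-coding genes alone, voom and each library left out. Figures were drawn with matplotlib 3.10.9. No protein sequences were used here.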

Additional observations from a re-analysis of the deposited data

How the results depend on the processing

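NQO1 and OSGIN1 kept their direction and their call under every alternative in which they were tested. Of the 7 genes tested, 4 were called as reported, 2 with upper quartile scaling and 2 with TPM, all lower. When 1 library was left out, between 2 and 4 of the 7 were called, with 2 without 10 Gy replicate 1 or replicate 2. Of all 12128 genes tested, 4317 were called as reported, 2874 of them lower. With upper quartile scaling 4000 were called, 1444 of them lower, and with TPM 4179, 1066 of them lower. When 1 library was left out, between 2660 and 3993 were called, lowest without 10 Gy replicate 2 (2660) and replicate 1 (2705). Without filtering of low genes, 2912 of the 31650 genes then tested were called. NRF2 pathway regulators called lower were 6 as reported and 3 with TPM, an alternative for the lists added after seeing the data, as were voom and the libraries left out. With 1 library left out, the log2 change of AKR1C3 was between -0.00184, without 10 Gy replicate 2, and 0.047. The causes of these moves were not tested. The log2 difference of the summed AKR1C level was -0.0638 as reported, between -0.108 (recovered reads) and -0.0159 (median of ratios) over its alternatives. The difference in the share of AKR1C1, 1.54 points as reported, was 0.158 without 10 Gy replicate 2 and 2.51 without 10 Gy replicate 1. The groups overlapped in both quantities.

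Same-numbered libraries deviated from their group means with correlations of -0.0405, -0.0349 and -0.101, beside -0.0518 to 0.0937 for different numbers. With 3 libraries per dose, these correlations cannot decide whether libraries of the same number were handled in pairs. With a replicate block, 3503 of all 12128 genes tested were called, and 3 of the 7 tested among the 9 genes. AKR1B1 was then at an adjusted p of 0.0508 in limma. AKR1B10 and AKR1C2 were left out by the filter on low genes, and all 9 genes were tested without it.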
